A study of Homo sapiens with 6 samples.

Results

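Ribosomes are built in the nucleolus, where RNA polymerase I copies the ribosomal DNA into a long precursor and a large set of assembly factors folds, cuts and modifies that RNA while ribosomal proteins are added. Small nucleolar ribonucleoproteins (snoRNPs) guide the modification, the small-subunit processome (a large particle around the U3 snoRNA) shapes the future 40S subunit, and a separate chain of factors matures the 60S subunit. Growing cells, leukaemia cells among them, need these factors in quantity, and the transcription factor MYC is known to promote their genes. The genes described here are the single-symbol rows of the deposited table whose symbol starts with NOP, NOL, NOC, RRP, UTP or TSR, or is 1 of 26 named nucleolar genes. They came to 44 of 6339 rows: 23 by prefix and 21 by name. NPM1, FBL, WDR75, GNL2 and PPAN were on the list of names and were not analysed here.

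The libraries came from ME-1, an established human line of acute myeloid leukaemia with inv(16), the inversion that fuses CBFB to MYH11 and makes the protein CBFβ-SMMHC. All 6 cultures carry that fusion. A set of 3 was kept for 6 h with the solvent DMSO and a set of 3 for the same time with AI-10-49 at 1 µM, an inhibitor designed to keep CBFβ-SMMHC from binding RUNX1. The design text calls these independent experiments, so the replicates stand for repeats in 1 cell line. Values are FPKM, a fragment measure adjusted for the length of the transcript and the size of the library, so levels can be compared between genes.

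The table holds a selection of rows, by a rule that the sources used here do not state, and nearly all of them differ between the treatments. Depth is unknown, and FPKM are relative to the library total: in bulk RNA, fewer cells of a type and less RNA per cell cannot be told apart. Of 10 myeloid markers 6 have a row (KIT, CD33, CEBPA, SPI1, ELANE and AZU1), and their summed FPKM was 397 to 443 with DMSO and 180.5 to 269 with AI-10-49. Of the B lymphoid, T lymphoid and erythroid markers, 2 of 5, 2 of 5 and 1 of 5 have a row, with sums of at most 29.96, 34.3 and 9.60 FPKM in any library, and those sums were lower with AI-10-49. The 5 fibroblast markers were not analysed here, and the part of other cell types in the results was not tested. AI-10-49 replicate 2 read low in abundant genes. Among the 8 members with a DMSO mean of at least 100 FPKM it stood at 0.457 to 0.851 of the mean of AI-10-49 replicates 1 and 3, and among the 22 members below 40 FPKM at 0.848 to 1.15. Results that turn on this library are given with and without it.

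**Figure D1:**
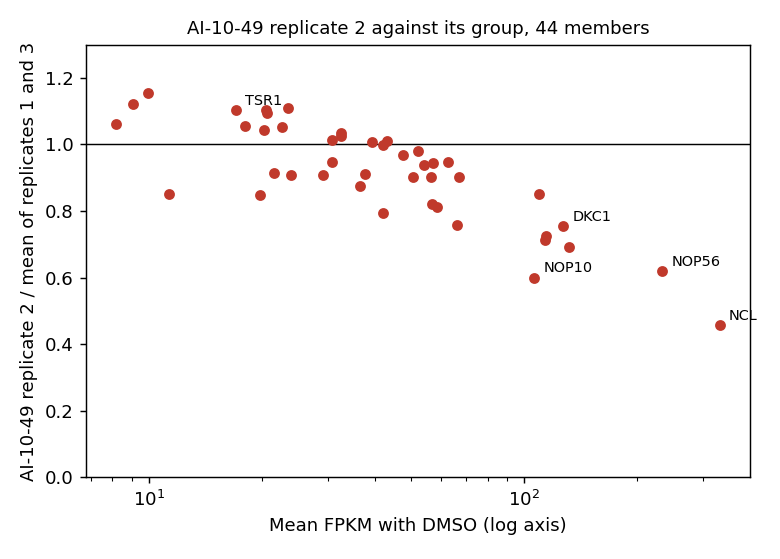
FPKM of AI-10-49 replicate 2 divided by the mean of AI-10-49 replicates 1 and 3 (vertical axis) against the mean FPKM with DMSO (horizontal log axis), 1 point for each of the 44 members. The points lie near 1 at low FPKM and fall to 0.619 for NOP56 and 0.457 for NCL.

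Most of the listed ribosome-building genes that have a row read lower, in FPKM relative to the library total, after 6 h with AI-10-49. Of the 44 members 40 fell and UTP6, NOL10 and TSR2 (3) rose, while NCL alone missed the threshold. The 40 include RRP7B, a pseudogene copy of the member RRP7A. The test was limma on log2(FPKM + 1), fitted on all 6230 rows with at least 1 FPKM in a group and a Benjamini-Hochberg adjusted p below 0.05. Over those rows 49.1% were called lower, 46.2% higher and 95.3% in either direction. The members' share of 90.9% lower is therefore to be read against 49.1%, and the mere passing of the test is no mark of these genes. Without AI-10-49 replicate 2 the count was 41 lower and 3 higher, where 51% of all rows were called lower, 46.4% higher and 97.4% in either direction. After quantile normalization it was 38 lower and 3 higher, where 48% of all rows were called lower, 46.9% higher and 94.9% in either direction.

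The median log2 fold change of the members was -0.78, against -0.28 over all rows tested, and -0.71 against -0.21 without AI-10-49 replicate 2. Quantile normalization moved the median of all rows to -0.06 and that of the members to -0.66. Relative to the other rows, the members' median thus lay lower by 0.51 as deposited and by 0.60 after quantile normalization. A called fall (adjusted p below 0.05) of at least 1 on the log2 scale was met by 13 of the 44 members and by 7.62% of all rows. NCL, at -1.17, was not called and is not among the 13. The DMSO and AI-10-49 libraries did not overlap in any of the 44 members, which was also so in 96.2% of all rows.

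Summed over the 44 members, the libraries held 2491, 2499 and 2632 FPKM with DMSO and 1544, 1204 and 1532 FPKM with AI-10-49. The lowest sum was that of AI-10-49 replicate 2, and without NCL and NOP56, the 2 most abundant members, the sums were 1933, 1937 and 2054 against 1248, 1052 and 1237 FPKM. MYC itself stood at 235, 233 and 242 FPKM with DMSO and at 27.9, 23.4 and 25.8 FPKM with AI-10-49, 9.22-fold lower, so no member fell as far as MYC. The largest fold among the members was 3.74, in MYBBP1A.

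**Figure D2:**
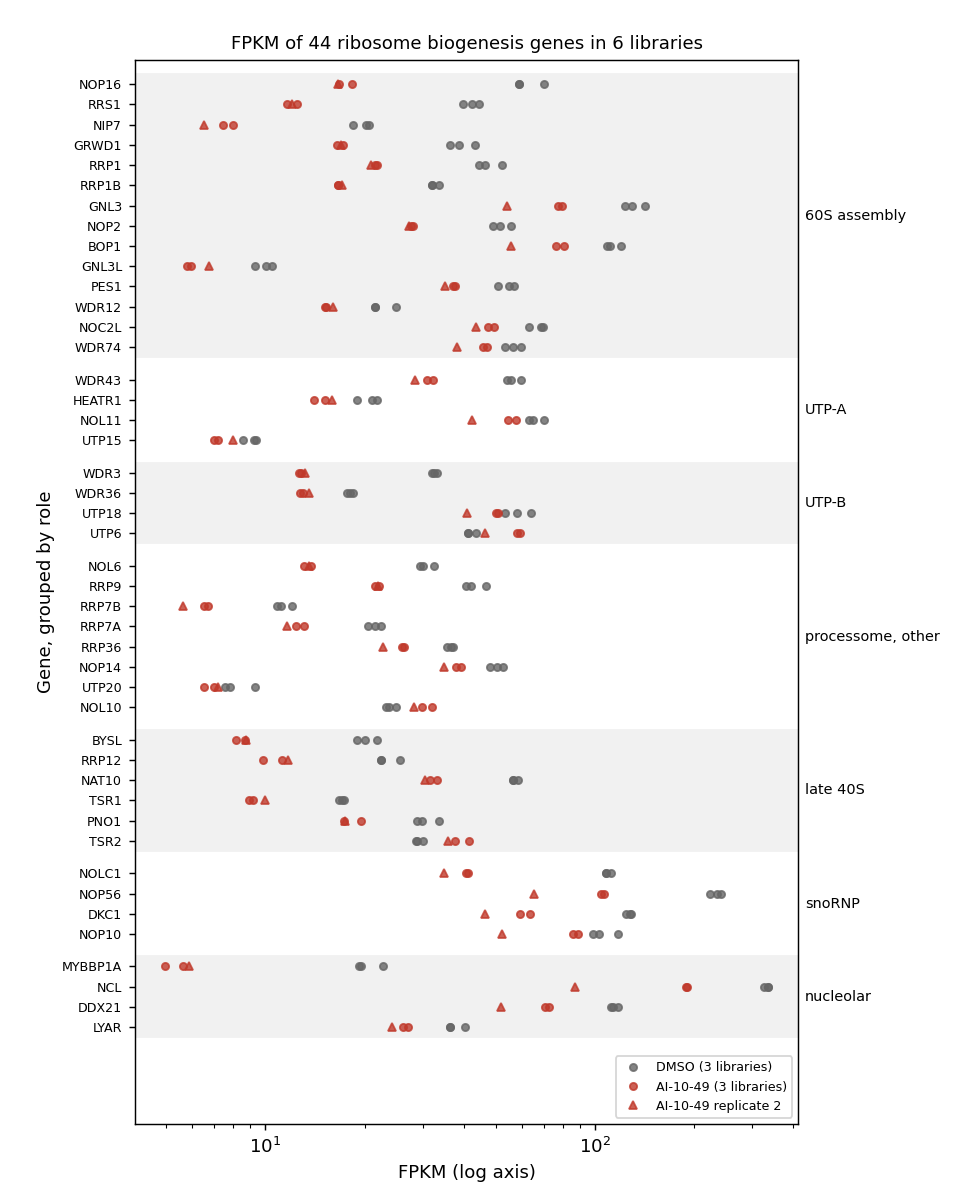
FPKM (log axis) of the 44 members in the 6 libraries, grouped by role, with DMSO in grey, AI-10-49 in red and AI-10-49 replicate 2 as triangles. Red lies left of grey in all genes but UTP6, NOL10 and TSR2, and levels with DMSO run from about 8.21 FPKM (UTP20) to 332 FPKM (NCL).

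The choice of members did not use the sequence of their start regions. The E-box CACGTG, the sequence that MYC with its partner MAX is known to bind, was searched in the 300 bases around each gene's first listed start (250 before, 50 after) in the RefSeq promoter table on GRCh38.p14, where 37 of the 44 members were matched. The motif reads the same on both strands. It was present in 14 of the 37 members (37.8%), in 11.5% of the 4800 matched rows tested and in 7.43% of all 27305 genes of the table. Counting any listed start of a gene, the shares were 45.9%, 14.1% and 8.77%. In each of these 14 members an E-box began between 20 bases before and 40 bases after the start, a window chosen after the positions were seen. An E-box in that window was found in 2.71% of the matched rows tested and in 1.53% of all genes. Since the window was fitted to the members, these shares are no test of position.

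Of the 14 members with an E-box, 13 fell and 1 (TSR2) rose. Of those that fell, NOP10, UTP18 and UTP20 lost their call under some alternative settings, given below. Among the 23 matched members without the E-box, all fell but UTP6, which rose, and NCL, which was not called. NOL11, also without it, lost its call under some of these settings. Over all rows 49.1% were called lower. The motif did not separate members that fell far from members that fell little: the median log2 fold change was -0.78 in the 14 with it and -0.75 in the 23 without it. Over the 4800 matched rows tested, the medians were -0.37 with the E-box and -0.25 without it. A match is a description of the letters and not evidence of binding. The stretches below run from 60 bases before to 30 bases after the start and are shown because they set the motif beside the values given later. In the first 6 the capitals mark the E-box:
NOL6: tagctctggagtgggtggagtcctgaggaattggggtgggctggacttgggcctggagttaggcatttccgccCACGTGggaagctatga
WDR43: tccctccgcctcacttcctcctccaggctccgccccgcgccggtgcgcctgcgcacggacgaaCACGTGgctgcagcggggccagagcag
PNO1: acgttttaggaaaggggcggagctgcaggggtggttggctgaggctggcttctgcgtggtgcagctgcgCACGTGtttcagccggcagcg
NAT10: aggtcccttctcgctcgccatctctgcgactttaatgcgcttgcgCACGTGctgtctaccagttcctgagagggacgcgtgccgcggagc
RRP9: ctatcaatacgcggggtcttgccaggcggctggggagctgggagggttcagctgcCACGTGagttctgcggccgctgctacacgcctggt
TSR2: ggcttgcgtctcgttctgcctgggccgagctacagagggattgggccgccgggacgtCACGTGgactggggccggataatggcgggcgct

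These stretches lie at chr9:33473895-33473984 (minus strand) for NOL6, chr2:28894607-28894696 (plus) for WDR43, chr2:68157828-68157917 (plus) for PNO1, chr11:34105569-34105658 (plus) for NAT10, chr3:51941875-51941964 (minus) for RRP9 and chrX:54440344-54440433 (plus) for TSR2, all on GRCh38.p14. NOP16 and WDR3, 2 of the 13 members called lower by at least 1 on the log2 scale, have no E-box in the 300 bases and carry the letters CCGGAAG or their reverse complement, a core bound by ETS factors, here in capitals (in NOP16 the 2 matches overlap):
NOP16: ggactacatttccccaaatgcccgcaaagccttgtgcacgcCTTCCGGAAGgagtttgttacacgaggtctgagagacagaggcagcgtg
WDR3: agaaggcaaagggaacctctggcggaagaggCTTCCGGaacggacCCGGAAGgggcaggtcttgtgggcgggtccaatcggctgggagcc

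NOP16 lies at chr5:176388569-176388658 (minus strand) and WDR3 at chr1:117929679-117929768 (plus strand). On either strand CCGGAAG was present in 14 of the 37 matched members (37.8%), in 19.9% of the matched rows tested and in 10.7% of all genes. The members with it had a median log2 fold change of -0.71 and those without it -0.75. Over the matched rows tested, the medians were 0.27 with it and -0.28 without it. The NRF1 core GCATGCGC, searched on both strands as well, was found in 3 members (8.11%) against 5.96% of the matched rows tested and 3.27% of all genes.

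**Figure D3:**
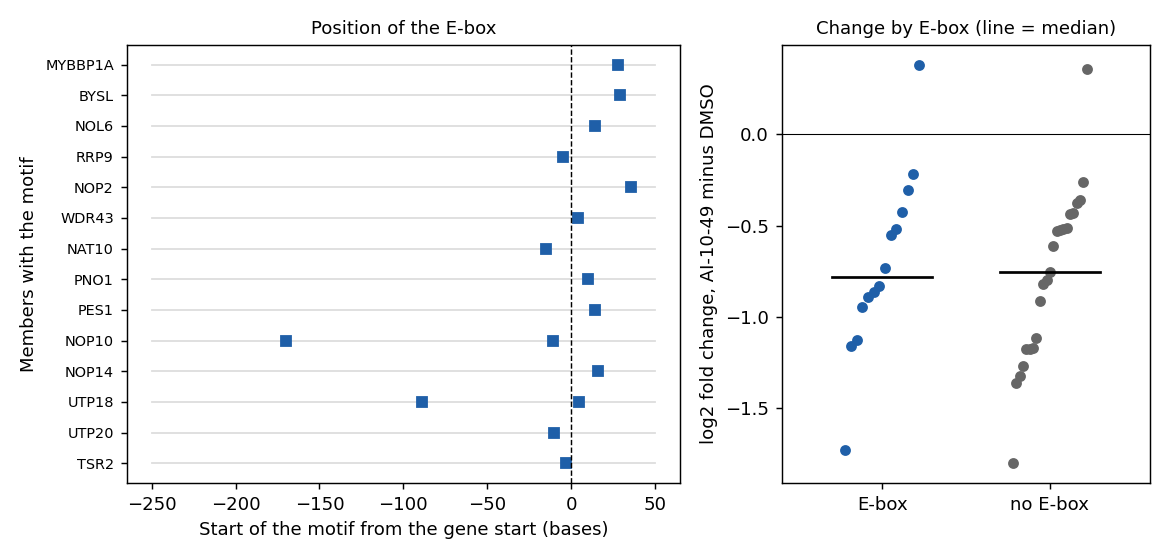
Left, start of each CACGTG relative to the gene start (bases, dashed line at the start) in the 14 members that hold it, with the largest fall at the top. Right, log2 fold change of the 14 members with and the 23 without the motif (points) and their medians (lines), which stand at -0.78 and -0.75.

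All 14 members that act in 60S assembly fell, with a median log2 fold change of -0.90. Over all rows tested the median was -0.28 and 49.1% were called lower, and the counts by role below are to be read against these. NOP16, a nucleolar factor of early 60S assembly, stood at 59.0, 59.0 and 70.3 FPKM with DMSO and at 18.4, 16.6 and 16.7 FPKM with AI-10-49. RRS1, which helps to bring the 5S RNA particle into the growing subunit, stood at 39.8, 42.3 and 44.4 FPKM and at 11.6, 12.0 and 12.5 FPKM. In both genes every treated library lay far below every control library, by much more than the spread within a group. Groups that do not overlap were seen in 96.2% of all rows. NOP16 was 3.64-fold lower (log2 fold change -1.80 ± 0.09 SE, adjusted p = 1.75e-09) and RRS1 3.496-fold lower (-1.72 ± 0.07, adjusted p = 2.58e-10).

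NIP7, a pre-rRNA processing factor, read 20.2, 18.5 and 20.7 FPKM with DMSO and 7.97, 6.53 and 7.44 FPKM with AI-10-49, a log2 fold change of -1.32 ± 0.08 (SE). GRWD1, a WD-repeat chaperone of a ribosomal protein, read 36.4, 38.6 and 43.3 FPKM and then 16.5, 17.0 and 17.2 FPKM (-1.17 ± 0.08). The groups of these genes did not overlap either, as in 96.2% of all rows, and the treated libraries lay close together. NOP2, an rRNA methyltransferase, changed by -0.89. At the other end of the group, NOC2L, a pre-60S factor that also acts as a transcriptional repressor, changed by -0.51 and WDR74, an assembly factor with WD repeats, by -0.38 (-0.47 and -0.28 without AI-10-49 replicate 2).

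PES1, BOP1 and WDR12 form the PeBoW complex, which is needed to process the RNA of the large subunit. BOP1 was the most abundant of these at 113 ± 5.77 FPKM (SD, n = 3) with DMSO, PES1 stood at 54.1 ± 3.13 and WDR12 at 22.7 ± 1.93. With AI-10-49 BOP1 read 80.5, 55.8 and 76.0 FPKM, so the fall was widened by replicate 2. The log2 fold changes were -0.69 ± 0.18 (SE) for BOP1, -0.55 ± 0.09 for PES1 and -0.52 ± 0.07 for WDR12. Without AI-10-49 replicate 2 the values were -0.53, -0.52 and -0.54. After quantile normalization they lay further apart, at -0.24 for BOP1, -0.37 for PES1 and -0.52 for WDR12, and the differences between the subunits were not tested.

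Among paralogues, RRP1 and RRP1B, related nucleolar proteins of 60S processing, fell together. RRP1 read 46.5, 44.4 and 52.2 FPKM with DMSO and 21.8, 21.0 and 21.5 FPKM with AI-10-49, and RRP1B read 33.7, 32.1 and 32.0 FPKM and then 16.6, 17.0 and 16.6 FPKM. The log2 ratio of RRP1 to RRP1B within a library was 0.55 ± 0.14 (SD, n = 3) with DMSO and 0.35 ± 0.05 with AI-10-49, a difference of -0.19 (exact two-sided permutation test, p = 0.1, the smallest that 3 against 3 libraries can give, and 0.167 adjusted over 5 pairs of genes). GNL3, the nucleolar GTPase nucleostemin, read 129, 124 and 142 FPKM with DMSO and 77.4, 54.3 and 79.4 FPKM with AI-10-49. Its paralogue GNL3L read 10.1, 10.5 and 9.32 FPKM and then 5.94, 6.77 and 5.78 FPKM, so it was the scarcer transcript in every library and moved in the same direction. The log2 fold change was -0.91 ± 0.20 (SE) for GNL3 and -0.61 ± 0.08 for GNL3L. Without AI-10-49 replicate 2 they were -0.74 and -0.67. The log2 ratio of GNL3 to GNL3L moved by -0.23, less than its spread among the treated libraries (0.43 SD; exact permutation p = 0.6).

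**Figure D4:**
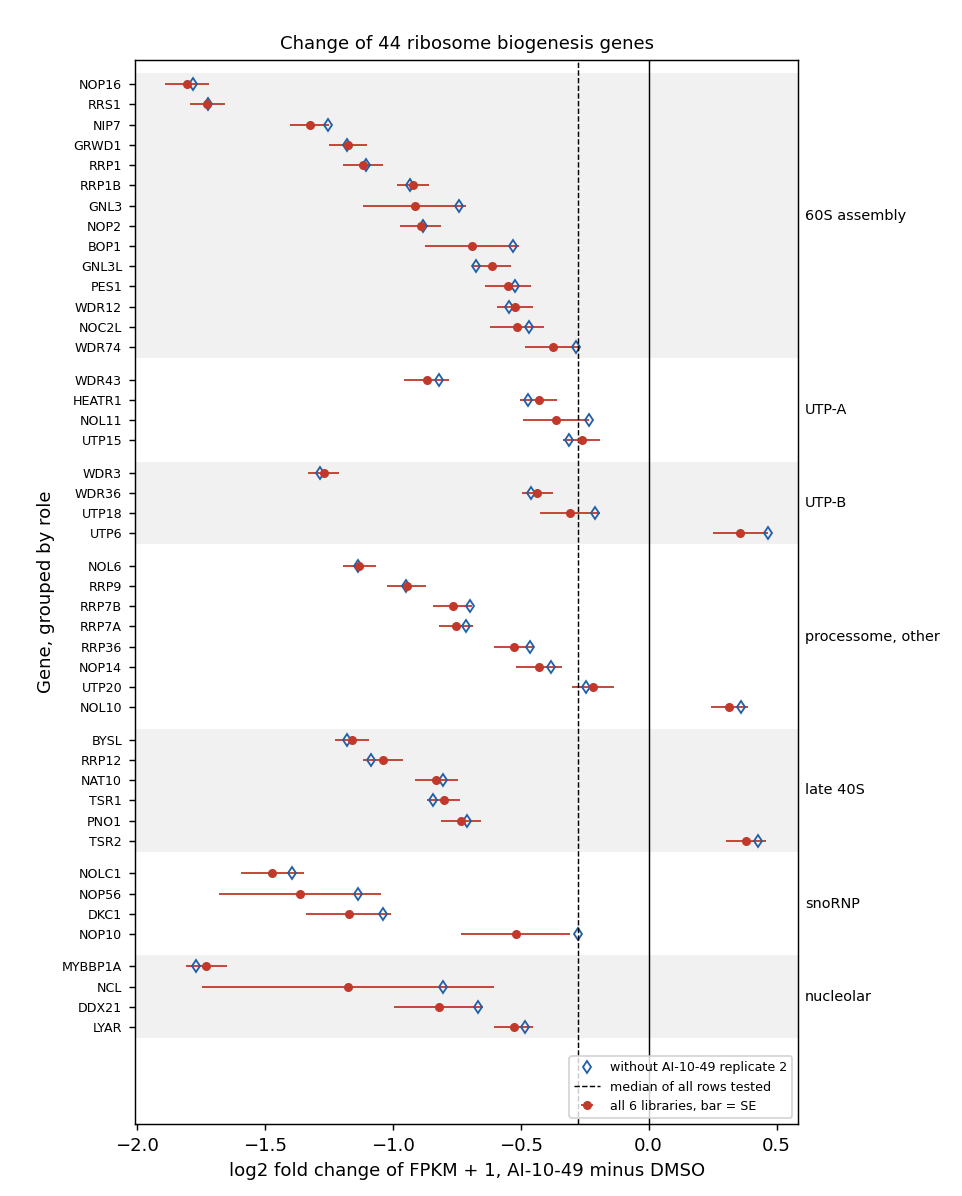
Log2 fold change of FPKM + 1 (AI-10-49 minus DMSO) of the 44 members by role, with all 6 libraries (red points, bars are SE) and without AI-10-49 replicate 2 (open blue diamonds). All 14 members of 60S assembly lie left of 0, UTP6, NOL10 and TSR2 lie right of it, and the dashed line marks the median of all rows tested (-0.28).

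Of the 16 members of the small-subunit processome, 14 fell and 2 rose, with a median log2 fold change of -0.43. The median over all rows was -0.28, with 49.1% called lower. RRP7B, a pseudogene copy of RRP7A, is counted among the 16 and among the 14. The UTP-A complex, which binds the first part of the precursor as it is transcribed, fell in all 4 measured members. WDR43 read 55.7, 54.2 and 59.7 FPKM with DMSO and 32.2, 28.5 and 30.9 FPKM with AI-10-49 (log2 fold change -0.87 ± 0.09 SE). HEATR1 read 21.0, 21.8 and 19.0 FPKM and then 15.1, 16.0 and 14.05 FPKM (-0.43 ± 0.07). The other UTP-A subunits changed less, NOL11 by -0.36 and UTP15 by -0.26, which is less than the median of all rows. NOL11 was at -0.23 without AI-10-49 replicate 2, and its call was lost without DMSO replicate 3 (-0.32, adjusted p = 0.0669).

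Subunits of UTP-B, a complex that joins UTP-A on the precursor, moved apart. WDR3 read 32.0, 32.4 and 33.2 FPKM with DMSO and 12.8, 13.2 and 12.7 FPKM with AI-10-49, which is -1.27 ± 0.06 (SE) on the log2 scale, with an adjusted p of 1.53e-09. UTP6 read 41.3, 41.3 and 43.7 FPKM and then 58.0, 46.5 and 59.2 FPKM, a rise of 0.36 ± 0.11 (adjusted p = 0.00661), or 0.47 without AI-10-49 replicate 2. These 2 subunits thus went in opposite directions in every treated library. WDR36 changed by -0.43 (18.1, 17.6 and 18.4 FPKM, then 13.0, 13.6 and 12.7 FPKM) and UTP18 by -0.31 (-0.21 without AI-10-49 replicate 2). Without DMSO replicate 1 and without DMSO replicate 3, UTP18 did not pass (-0.31, adjusted p = 0.061, and -0.24, adjusted p = 0.104).

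The ratio of WDR3 to UTP6 within a library was 0.775, 0.784 and 0.759 with DMSO and 0.221, 0.284 and 0.214 with AI-10-49. On the log2 scale it moved by -1.70, against an SD of 0.02 among DMSO and 0.22 among AI-10-49 libraries (exact two-sided permutation p = 0.1, the smallest possible, and 0.167 adjusted over 5 pairs). This pair was picked after its values were seen. From the same complex, PWP2, which belongs to a list of further small-subunit factors, changed by -1.27 ± 0.07 (SE) and TBL3 by -0.30, so the 6 measured UTP-B genes ran from -1.27 to 0.36.

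Of the other 8 members placed in the processome, 7 fell, the pseudogene RRP7B among them, and NOL10 rose. NOL6, a subunit of UTP-C, read 30.01, 32.5 and 29.6 FPKM with DMSO and 13.8, 13.6 and 13.1 FPKM with AI-10-49 (log2 fold change -1.13 ± 0.06 SE). RRP9, the U3 snoRNA-binding protein, read 42.1, 40.6 and 46.7 FPKM and then 21.5, 22.02 and 22.1 FPKM (-0.95 ± 0.08). NOL6 was 2.28-fold and RRP9 1.97-fold lower, and the treated libraries of each lay close together. NOL10 read 23.7, 23.2 and 24.9 FPKM with DMSO and 32.1, 28.2 and 29.8 FPKM with AI-10-49 (0.32 ± 0.07, adjusted p = 0.0011). Its lowest treated library lay above its highest control, and groups did not overlap in 96.2% of all rows. RRP36 (-0.53), NOP14 (-0.43) and UTP20 (-0.22) are further processome factors, and UTP20 fell less than the median of all rows (-0.28). UTP20, at 8.21 FPKM the lowest member with DMSO, lost its call without DMSO replicate 2 (-0.14, adjusted p = 0.119) and without AI-10-49 replicate 3 (-0.18, adjusted p = 0.0735).

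RRP7A, another UTP-C subunit, changed by -0.75 ± 0.07 (SE) and RRP7B by -0.76 ± 0.08. RRP7B is a pseudogene copy of RRP7A, so reads may have been split between them and their values are not independent. The log2 ratio of RRP7A to RRP7B was 0.92 ± 0.11 (SD, n = 3) with DMSO and 0.98 ± 0.09 with AI-10-49 (exact permutation p = 0.6).

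Of the 6 members placed here with late maturation of the 40S subunit, 5 fell and the other rose (49.1% of all rows were called lower). The placing is a simplification, and the count is no result about that stage alone. BYSL, which is needed for export and final trimming of the pre-40S particle, read 19.0, 20.1 and 21.8 FPKM with DMSO and 8.65, 8.76 and 8.17 FPKM with AI-10-49 (log2 fold change -1.16 ± 0.07 SE). RRP12, a pre-40S export factor, read 22.4, 25.5 and 22.5 FPKM and then 11.2, 11.7 and 9.85 FPKM (-1.04 ± 0.08). Each treated library of these genes was below each control library by a wide margin, though groups did not overlap in 96.2% of all rows. NAT10, which acetylates 18S rRNA, changed by -0.83, TSR1, a GTPase-like factor of pre-40S particles, by -0.80, and PNO1, which sits at the end of the future 18S rRNA, by -0.73.

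TSR2, a chaperone for the small-subunit protein RPS26, was the member of this group that rose. It read 28.9, 28.7 and 30.1 FPKM with DMSO and 37.7, 36.0 and 41.6 FPKM with AI-10-49, 1.32-fold higher (log2 fold change 0.38 ± 0.08 SE, adjusted p = 0.000522). Its groups did not overlap, as in 96.2% of all rows, and the rise was 0.43 without AI-10-49 replicate 2.

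The 4 snoRNP members were among the most abundant, and all 4 fell, where 49.1% of all rows were called lower. NOLC1, a chaperone of snoRNPs, read 108, 112 and 108 FPKM with DMSO and 40.8, 34.8 and 41.1 FPKM with AI-10-49 (log2 fold change -1.47 ± 0.12 SE, adjusted p = 2.10e-07). NOP56, a core protein of the methylation-guiding box C/D snoRNPs, read 223, 235 and 241 FPKM and then 107, 65.4 and 104 FPKM. AI-10-49 replicate 2 lies well below the other treated libraries in NOP56, whose change was -1.36 ± 0.32 with it and -1.13 without it.

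The H/ACA snoRNPs convert uridine to pseudouridine in rRNA. DKC1, their catalytic subunit, read 128, 124 and 129 FPKM with DMSO and 63.4, 46.3 and 59.4 FPKM with AI-10-49 (log2 fold change -1.17 ± 0.17 SE, and -1.04 without AI-10-49 replicate 2). NOP10, a small subunit of the same particle, read 103, 98.6 and 117 FPKM and then 86.0, 52.4 and 89.0 FPKM. Its change was -0.52 ± 0.21 (adjusted p = 0.0319) with all libraries and -0.28 without AI-10-49 replicate 2, and the call was lost when any single DMSO library was left out (adjusted p = 0.0559 to 0.1165) and after quantile normalization (-0.10, adjusted p = 0.135). The log2 ratio of DKC1 to NOP10 was 0.26 ± 0.11 (SD, n = 3) with DMSO and -0.40 ± 0.20 with AI-10-49. Their order was thus reversed in every treated library (exact permutation p = 0.1, the smallest possible, and 0.167 adjusted over 5 pairs). DKC1 and NOP10 are not paralogues, and the pair was chosen with results of these data known, so the p-value is no independent test. The other 2 subunits, from the list of H/ACA and snoRNP assembly genes, changed by -1.09 ± 0.21 (NHP2, -0.88 without AI-10-49 replicate 2) and -1.02 ± 0.08 (GAR1).

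Of 4 nucleolar proteins with several roles, 3 fell and NCL did not pass (over all rows 49.1% were called lower). MYBBP1A, a nucleolar protein that takes part in rRNA synthesis and transcriptional control, read 19.2, 22.7 and 19.5 FPKM with DMSO and 5.64, 5.85 and 4.95 FPKM with AI-10-49, which is -1.73 ± 0.08 (SE) on the log2 scale, with an adjusted p of 1.19e-09. DDX21, an RNA helicase, read 117, 112 and 114 FPKM and then 72.4, 52.0 and 70.7 FPKM (-0.82 ± 0.17, and -0.67 without AI-10-49 replicate 2). LYAR, a zinc finger protein of the nucleolus, changed by -0.53 ± 0.08.

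NCL encodes nucleolin, a major nucleolar RNA-binding protein and the most abundant member. It read 334, 326 and 336 FPKM with DMSO and 189, 86.9 and 191 FPKM with AI-10-49. The groups did not overlap, as in 96.2% of all rows, but replicate 2 stood at 0.457 of the mean of the other treated libraries. With all libraries the log2 fold change was -1.17 ± 0.57 (SE, adjusted p = 0.0633). Without AI-10-49 replicate 2 it was -0.80 ± 0.07 (adjusted p = 1.76e-06), a 1.75-fold difference between 332 FPKM and the mean of the other treated libraries.

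The levels and the changes of the members were only weakly related. Over the 44 genes, which share the same 6 libraries, Spearman's rho between the DMSO mean and the log2 fold change was -0.21 (Pearson's r -0.25 with log2 levels), and -0.05 (r -0.11) without AI-10-49 replicate 2. The 8 members of at least 100 FPKM had a median of -1.04 with all libraries and -0.77 without that library, while the 22 members below 40 FPKM had -0.74 and -0.70. Quantile normalization, which gives every library the same distribution of values, moved 13 members by more than 1.5 times and left their direction as it was. The falls shrank to -0.75 in NOP56, -0.45 in GNL3, -0.40 in DDX21, -0.24 in BOP1, -0.22 in NOC2L and -0.16 in WDR74, and the rise of UTP6 grew to 0.57. DKC1 stood at -0.78, NOP14 at -0.26 and NCL, then past the threshold, at -0.39 (adjusted p = 0.000685). NOL11 (-0.08) and UTP18 (-0.06) no longer passed. Exons of 15 of the 43 members found in GENCODE 29 overlap an exon of another protein-coding gene, for example NOP16 with HIGD2A, GNL3 with GLT8D1 and TSR2 with FGD1, each on the opposite strand. On the same strand, NOP2 overlaps AC006064.6, GRWD1 overlaps KCNJ14 and RRS1 overlaps AC009879.2, and strand cannot tell the reads of these pairs apart. The sources used here do not say whether counting used strand, so reads of pairs on either strand may have been assigned to either gene.

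Genes of the same pathway outside the 44 members were counted from 5 lists that name 119 genes, of which 62 were tested. By list, 9 of 16 polymerase I, 10 of 16 exosome, 17 of 33 small-subunit, 20 of 42 large-subunit and 6 of 12 H/ACA genes were tested. The others were not analysed here. Of the 62 genes tested, 44 fell, 14 rose and 4 did not pass the test. With AI-10-49 replicate 2 left out, the counts were 46 and 16. These counts are to be read against the 49.1% of all rows called lower and 46.2% called higher (51% and 46.4% without that library), and the exosome and the H/ACA lists, with 6 of 10 and 3 of 6 genes lower, lie near that share. RNA polymerase I and its factors fell in 8 of the 9 genes tested (16 are listed), with a median log2 fold change of -1.16. CD3EAP, a subunit of that polymerase, went from 4.13 ± 0.273 to 0.494 ± 0.0567 FPKM (SD, n = 3), 8.36-fold lower. It passed the filter of 1 FPKM only through its DMSO level and drops out at a filter of 5 FPKM, so its fold is uncertain. On the log2(FPKM + 1) scale, where low genes appear to change less, the change of CD3EAP was -1.78 ± 0.10 (SE). TCOF1 (treacle, a partner of the polymerase at the ribosomal DNA) and POLR1B (its second-largest subunit) each changed by -1.22. TTF1, which ends transcription by polymerase I, rose by 0.46 ± 0.09.

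In the RNA exosome list, which trims rRNA precursors, 6 genes fell and 4 rose among 10. A division made after the values were seen set the genes that fell apart from those that rose by role. The 6 that fell were all core subunits (EXOSC2 to EXOSC7), with EXOSC6 at -1.12, EXOSC5 at -1.04 and EXOSC2 at -0.98. The 4 that rose were all nuclear cofactors: ZCCHC7 (0.61), PAPD5 (0.33) and the helicase gene SKIV2L2 (0.35), all of the TRAMP complex that marks RNA for the exosome, and C1D (0.34). SKIV2L2 did not pass without DMSO replicate 2 (0.30, adjusted p = 0.0528) and was at 0.47 without AI-10-49 replicate 2.

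Of 17 other small-subunit factors, 13 fell, 3 rose and 1 did not pass (median -0.45). PWP2 of UTP-B and IMP3, a U3 snoRNP protein, changed by -1.27 and -1.05, and the abundant methyltransferase cofactor TRMT112 stood at -1.01 ± 0.55 (SE, adjusted p = 0.0933), or -0.60 (adjusted p = 5.80e-05) without AI-10-49 replicate 2. The risers were the kinase gene RIOK2 (0.38), FCF1 (0.30), an endonuclease-like factor, and the helicase gene DDX52 (0.25). Of 20 other large-subunit factors, 14 fell and 4 rose (median -0.42). RSL24D1 (0.49, adjusted p = 0.338) and DDX27 (0.34, adjusted p = 0.0593) were not called, and the counts were 14 lower and 6 higher with AI-10-49 replicate 2 left out. SURF6, a nucleolar protein, changed by -0.89, the giant ATPase gene MDN1 by -0.85 and the helicase gene DDX24 by -0.81, while NVL (0.60), an ATPase of pre-60S particles, ZNF622 (0.47), RPF1 (0.42) and RBM34 (0.37) rose. RBM34 did not pass without AI-10-49 replicate 1 (0.26, adjusted p = 0.0774), and without AI-10-49 replicate 2 RBM34, DDX27 and RSL24D1 stood at 0.52, 0.53 and 1.011. Of 6 H/ACA and snoRNP assembly genes, 3 fell, 2 rose and RUVBL2 did not pass (-0.32, adjusted p = 0.079). RUVBL2 was called lower without AI-10-49 replicate 1 (-0.45, adjusted p = 0.0311) and without AI-10-49 replicate 2 (-0.15, adjusted p = 0.049), and stood at 0.065 after quantile normalization. The risers were PIH1D1 (0.69 ± 0.10 SE) and RPAP3 (0.42 ± 0.08), both of the R2TP complex that assembles snoRNPs, and of its ATPases RUVBL1 and RUVBL2 the first fell by 0.61 on the log2 scale.

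**Figure D5:**
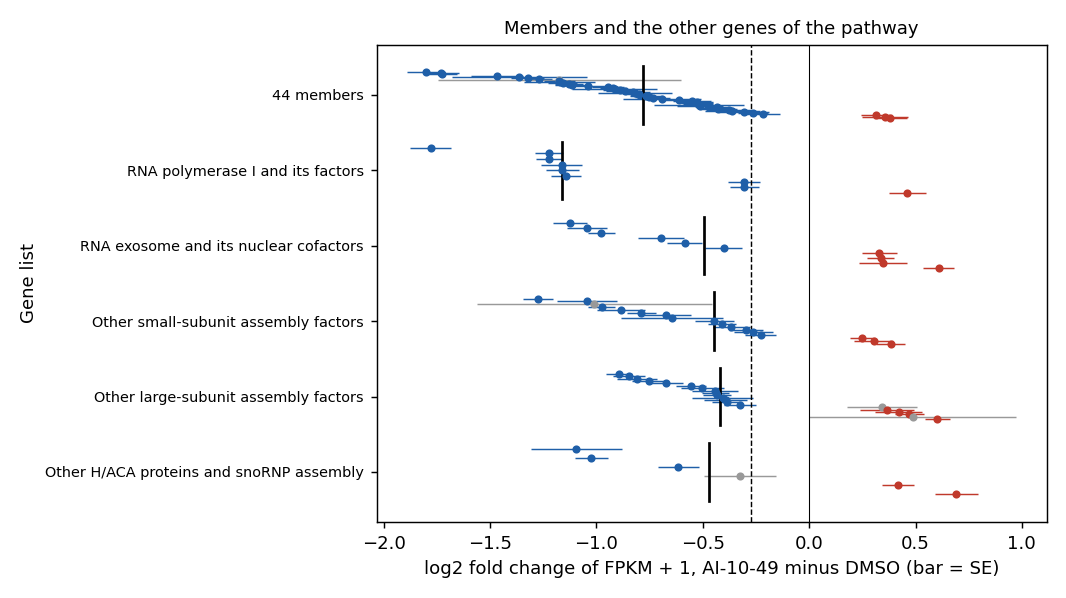
Log2 fold change (AI-10-49 minus DMSO, bars are SE) of the 44 members and of 5 lists of other pathway genes, lower in blue, higher in red and not past the test in grey, with list medians as black lines and the median of all rows tested (-0.28) dashed. Polymerase I factors have a median of -1.16, and the exosome list splits into 6 genes below and 4 above 0.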

How the data were processed

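RNA from 6 ME-1 cultures, per the labels 3 with DMSO and 3 with AI-10-49, was sequenced as 90 bp paired-end reads after a TruSeq RNA library kit. Per the submitters' processing notes, the tools were Cuffdiff, Cufflinks 2.2.0 and Bowtie2 2.1.0, and the build was hg19. The authors deposited FPKM per library for 6339 selected rows in columns named control and treated, read here as DMSO and AI-10-49, and the depth is unknown, so no interval that needs it is given. With limma 3.58.1 (R 4.3.3; two-sided, mean-variance trend) log2(FPKM + 1) was compared over the 6230 rows whose mean reached 1 FPKM in either group, tested on simulated data first, and p-values were adjusted over all of these rows. Fold changes on that scale understate low genes. The members, lists and tests were chosen with earlier results of these data known. Named genes follow a rule: the largest changes in each role and over all roles, the most abundant, those that rose or did not pass, paralogues, and the 3 largest changes and exceptions of each pathway list. Python 3.11.15, SciPy 1.17.1 and Matplotlib 3.10.9 served for exact tests and plots. Gene structures came from GENCODE 29 and promoters from RefSeq, both on another build than hg19.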

Additional observations from a re-analysis of the deposited data

How the results depend on the processing

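The members were recomputed under 15 alternatives (pseudocounts, filters, scaling, trend, the replicate block and each library left out). The count of members called lower was 37 to 41 and that called higher was 3 throughout. The median log2 fold change was -0.78 in the main setting and ran from -0.84 (pseudocount 0.1) to -0.66 (quantile normalization). It was -0.71 without AI-10-49 replicate 2, and -0.69 when quantile normalization was run without that library. Under quantile normalization with and without that library, the median of all rows was -0.06 and -0.03. No member changed sign. Of 660 values of single members, 14 lost their call (NOL11, NOP10, UTP18 and UTP20) and 5 gained one (NCL). Quantile normalization moved 13 members by over 1.5 times, and the cause was not tested. The replicate block left the members at 40 lower and 3 higher and called 15 higher in the pathway lists against 14. Over all rows it called 6015 against 5939. Replicate numbers were not treated as pairs, since the design text describes none. The deviations of same-numbered libraries correlated at -0.15, 0.147 and 0.247 across genes and those of differently numbered ones at -0.254 to 0.205. Deviations from a group mean depend on each other, so these values cannot tell whether pairs exist. RUVBL2 turned from -0.32 to 0.065 and to 0.039 under the quantile settings, not called. Depth is unknown, so low values rest on the spread between libraries alone.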
